A study of Mus musculus with 9 samples.

Results

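The ubiquitin-conjugating enzymes (E2s) of the mouse were followed by nascent transcription during red cell maturation in culture. They were taken as every gene of the deposited gene-body table whose symbol starts with Ube2, which gave 37 of 24391 genes. The symbol also takes in Ube2v1 and Ube2v2, variants without the catalytic cysteine, and Ube2cbp, which is named for binding Ube2c and is not itself classed as an E2, and all counts below include them. Of these, 31 passed the expression filter, among 13825 genes tested. E2s take activated ubiquitin, or a ubiquitin-like protein such as SUMO, NEDD8 or ISG15, from an E1 enzyme and pass it on with the help of E3 ligases. The E2 largely decides which type of chain is built, and so whether a target is degraded or signals. Maturing red cells lose their organelles and much of their proteome, and this system takes part in that clearance.

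Precision run-on sequencing (PRO-seq) marks the RNA that engaged polymerase is extending, so its counts report transcription and not RNA abundance. Libraries came from G1E-ER4 cells, which are G1E cells expressing GATA1-ER, a fusion of the erythroid factor GATA1 that estradiol switches on. They were untreated (0 h, n = 3) or had been kept in 100 nM estradiol for 13 h (n = 2) or 24 h (n = 2). Untreated G1E cells, the parental line without the fusion and known to lack functional GATA1, gave another 2 libraries. All 4 groups were cultured with erythropoietin and kit ligand. Both are established cell lines, and only the GATA1-ER cells were treated, so the effect of estradiol without the fusion was not measured.

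Gene-body reads summed to between 37830789 and 139945759 per library. Gata1 itself was read in every library, at 164 and 214 CPM in G1E and from 188 to 301 CPM in the others, so its counts do not check which cells carry the fusion. CPM are counts scaled to library size and between libraries (TMM). The summed level of 10 erythroid markers was 1061 to 1147 CPM at 0 h, 1884 to 2011 CPM at 13 h, 3574 to 4185 CPM at 24 h and 1288 to 1685 CPM in G1E, where Hbb-b1 had no read. The 8 mast cell and basophil markers summed to 96.4 to 140 CPM at 0 h, 4.68 to 8.13 CPM at 13 h, 1.04 to 1.53 CPM at 24 h and 75.1 to 189 CPM in G1E, with Mcpt4 and Mcpt8 at 0 in all 4 groups. The 8 granulocyte and monocyte markers never summed to more than 1.04 CPM, the 6 megakaryocyte markers stayed between 28.0 and 60.6 CPM, and the 8 lymphocyte markers summed to between 11.8 and 34.7 CPM. The part of these other programmes in the results on Ube2 genes was not tested. In bulk libraries, fewer cells of a type and less transcription per cell cannot be told apart. Separate cultures for the replicates are not stated in the labels, and p-values therefore measure only how far these libraries differ among themselves.

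Of the 31 tested Ube2 genes, 12 were higher and 1, Ube2cbp, was lower at 24 h than at 13 h of estradiol, and 15 were higher and 7 lower at 24 h than without it. A gene was called where the adjusted p of edgeR's quasi-likelihood test was under 0.05. At 13 h against 0 h, 6 Ube2 genes were higher (20.1% of all tested genes were) and 8 were lower (20.9% of all), so their shares lay near the background. Of all tested genes, 29.0% were higher and 30.7% lower at 24 h against 0 h, beside 48.4% and 22.6% of the Ube2 genes. At 24 h against 13 h the figures for all genes were 11.7% higher and 12.5% lower, beside 38.7% and 3.23% of the Ube2 genes. The family's median log2 fold change was 0.01 at 13 h against 0 h, 0.44 at 24 h against 0 h and 0.37 at 24 h against 13 h, beside -0.02, -0.07 and -0.05 for all tested genes. These comparisons share libraries and are not independent. Every call in them came with groups whose CPM did not overlap. Some members without a call had such groups too, among them Ube2n at 24 h against 0 h. With 2 or 3 libraries per group this adds no support to the calls, and the share over all genes was not counted.

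The split at 24 h depended on the scaling. With libraries scaled to total counts, the median of all genes moved to -0.45 at 24 h against 0 h and to -0.34 at 24 h against 13 h. The family then counted 7 higher and 10 lower at 24 h against 0 h. The 7 were Ube2b, Ube2h, Ube2j1, Ube2l3, Ube2l6, Ube2o and Ube2r2, all of them among the 15, and no gene called under both scalings turned its direction. Ube2n was among the 10, at -0.32 (adjusted p = 0.029), though not called with TMM, at 0.06. At 24 h against 13 h the same scaling gave 6 higher and 3 lower. The shares of all tested genes called under this scaling were not counted, so these counts have no background beside them. Removing 24 h replicate 2 left 6 calls at 24 h against 13 h in place of 13, and removing 13 h replicate 1 left 7 calls at 13 h against 0 h in place of 14. A block by library number series (the leading digits of the library numbers) was also added to the fit. Of the 12 higher calls at 24 h against 13 h it kept 1, that of Ube2h, and it lost the lower one. The 13 h and 24 h libraries share no series.

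Some of the 31 tested members changed by at least 1 on the log2 scale. The shares of members at 13 h against 0 h, and of those higher at 24 h against 0 h, lay near the shares of all genes. At 24 h against 0 h, Ube2l6, Ube2j1, Ube2h, Ube2r2 and Ube2b were higher by that much (16.8% of all genes were) and Ube2cbp and Ube2e1 lower (22.4% of all). At 13 h against 0 h, the increases were in Ube2l6, Ube2j1 and Ube2h (10.6% of all genes) and the decreases in Ube2cbp, Ube2e1 and Ube2g1 (11.5% of all). At 24 h against 13 h, Ube2r2, Ube2h, Ube2j1 and Ube2l6 were higher by that much (2.92% of all genes) and Ube2cbp lower (7.84% of all).

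The promoters of the 7 genes that moved most at 24 h are shown because each has an initiation site called in the same direction at that time, with values given among the start elements. They are the 250 bases before the first start that RefSeq lists for each gene, 5′ to 3′ on the gene's strand, in build GRCm38.p6. Capitals mark matches, on either strand, to the GATA motif (AGATAA and TGATAA, with AGATAG and TGATAG also accepted), the E-box (CACGTG), the CCAAT box and the cell cycle homology region (TTTGAA).

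Ube2l6 (chr2:84798578-84798827, plus strand): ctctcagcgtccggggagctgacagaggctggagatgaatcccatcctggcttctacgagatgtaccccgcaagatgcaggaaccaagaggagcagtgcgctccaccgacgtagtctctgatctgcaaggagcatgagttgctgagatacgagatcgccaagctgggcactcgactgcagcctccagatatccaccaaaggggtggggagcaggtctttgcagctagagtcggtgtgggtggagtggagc
Ube2j1 (chr4:33031130-33031379, plus strand): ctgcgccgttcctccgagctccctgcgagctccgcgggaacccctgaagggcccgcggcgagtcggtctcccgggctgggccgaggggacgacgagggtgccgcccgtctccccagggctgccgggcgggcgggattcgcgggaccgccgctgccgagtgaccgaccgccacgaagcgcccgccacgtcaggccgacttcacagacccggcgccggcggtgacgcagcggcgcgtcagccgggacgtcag
Ube2h (chr6:30304540-30304789, minus strand): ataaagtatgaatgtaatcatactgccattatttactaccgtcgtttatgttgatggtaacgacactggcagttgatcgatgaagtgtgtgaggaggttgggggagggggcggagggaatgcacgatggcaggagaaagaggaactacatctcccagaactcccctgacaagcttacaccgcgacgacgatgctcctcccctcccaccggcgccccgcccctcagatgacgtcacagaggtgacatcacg
Ube2r2 (chr4:41135771-41136020, plus strand): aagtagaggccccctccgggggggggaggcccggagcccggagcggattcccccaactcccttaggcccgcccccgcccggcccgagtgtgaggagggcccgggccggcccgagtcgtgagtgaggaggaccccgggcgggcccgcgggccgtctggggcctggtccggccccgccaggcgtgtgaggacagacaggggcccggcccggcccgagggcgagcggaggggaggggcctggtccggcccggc
Ube2b (chr11:52000787-52001036, minus strand): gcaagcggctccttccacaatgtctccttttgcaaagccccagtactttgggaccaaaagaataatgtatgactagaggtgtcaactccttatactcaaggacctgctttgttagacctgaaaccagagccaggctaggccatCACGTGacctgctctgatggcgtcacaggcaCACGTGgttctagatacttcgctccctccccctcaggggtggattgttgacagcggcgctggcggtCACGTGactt
Ube2cbp (chr9:86464917-86465166, minus strand): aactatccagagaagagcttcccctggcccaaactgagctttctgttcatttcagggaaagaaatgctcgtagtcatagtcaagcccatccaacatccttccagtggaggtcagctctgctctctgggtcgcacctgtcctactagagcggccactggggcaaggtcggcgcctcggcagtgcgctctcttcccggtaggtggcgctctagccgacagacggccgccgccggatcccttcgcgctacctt
Ube2e1 (chr14:18331845-18332094, minus strand): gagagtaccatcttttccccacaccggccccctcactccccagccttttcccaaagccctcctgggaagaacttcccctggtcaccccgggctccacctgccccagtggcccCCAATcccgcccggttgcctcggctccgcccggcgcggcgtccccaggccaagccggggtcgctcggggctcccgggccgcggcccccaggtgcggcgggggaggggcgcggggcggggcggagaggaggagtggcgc

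In these windows Ube2b held 3 E-box matches and Ube2e1 1 CCAAT match, while the other windows shown held no listed motif. RefSeq promoters were found for 24 of the 31 tested members. A GATA match lay in 1 of the 24 (Ube2s), against 27.1% of 27025 mouse promoters of the same length. These counts take the first start listed for each gene. Of the later starts, that of Ube2h (chr6:30243804-30244053) held 1 GATA match, and no other listed motif lay before a later start of any tested member. CCAAT lay in 6 of the 24 (34.5% of all), CACGTG in 2 (6.05% of all) and TTTGAA in 3, Ube2c, Ube2f and Ube2z (16.3% of all). A match describes letters only, and its absence says nothing of binding elsewhere.

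Among E2s for ubiquitin-like proteins, Ube2l6 rose more than any other tested member. Ube2l6 carries ISG15, an interferon-induced modifier. It had 4.01, 3.40 and 2.62 CPM at 0 h, 33.2 and 44.4 CPM at 13 h, 74.4 and 84.3 CPM at 24 h, and 4.50 and 3.16 CPM in G1E. Each treated library was far above each untreated one, and both 24 h libraries were above both 13 h libraries. The log2 fold change was 3.54 ± 0.23 (SE) at 13 h against 0 h and 4.57 ± 0.24 at 24 h against 0 h, or 23.8-fold (edgeR adjusted p = 6.2e-07). From 13 h on it was 1.03 ± 0.25 (adjusted p = 0.0157). This call was lost with total-count scaling, with the series block and without 13 h replicate 1 or 24 h replicate 2.

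Of 5 listed ISG15 pathway genes, 4 were tested. This list and the later lists of partner genes were counted with TMM only, and their counts and medians were not repeated with total-count scaling. Uba7, the E1 for ISG15, and Usp18, which removes it, were higher at both times, and Trim25, a ligase, was lower at both. Of all tested genes, 20.1% were higher and 20.9% lower at 13 h against 0 h, and 29.0% and 30.7% at 24 h against 0 h. The list median was 0.19 at 24 h against 0 h and -0.46 at 24 h against 13 h. Uba7 averaged 77.3 ± 17.6 CPM at 24 h and 21 ± 1.6 CPM at 0 h (SD, n = 2 and 3), a log2 fold change of 1.88 ± 0.22 (edgeR adjusted p = 4.6e-05). Usp18 averaged 3.95 ± 1.38 CPM at 24 h and 1.72 ± 0.38 CPM at 0 h. Isg15 itself had too few reads to be tested.

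The E2s of NEDD8, which activates cullin ligases, rose modestly. Ube2m had 24.5, 21.5 and 23.9 CPM at 0 h, 33.2 and 31 CPM at 13 h, 39.9 and 35.3 CPM at 24 h, and 20.2 and 18.1 CPM in G1E. Its treated libraries lay above every untreated one. This gave a log2 fold change of 0.46 ± 0.15 at 13 h and 0.69 ± 0.15 at 24 h against 0 h (edgeR adjusted p = 0.0296 and 0.00238), and the call at neither time held with total-count scaling. The 13 h call held in 8 of 15 alternatives and was lost without 0 h replicate 2 or 3 or without either 13 h replicate. Ube2f, the other NEDD8 E2, was not called at 13 h and was higher by 0.46 ± 0.11 at 24 h. Ube2z, which takes ubiquitin or FAT10 from Uba6, was higher by 0.67 ± 0.13 at 24 h, and neither of these calls held with total-count scaling.

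Of 11 listed SUMO ligases and proteases, 6 were higher and none lower at 24 h against 0 h (29.0% and 30.7% of all tested genes). The median log2 fold change was 0.54, and Pias1 and Senp2 were up most, by 1.28 ± 0.13 and 1.22 ± 0.18.

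In the endoplasmic reticulum group, Ube2j1 rose strongly and Ube2j2 slightly. Both are membrane-anchored E2s of ER-associated degradation (ERAD), in which misfolded proteins are drawn out of the reticulum and destroyed. Ube2j1 had 56.5, 41.7 and 41.5 CPM at 0 h, 222 and 176 CPM at 13 h, 343 and 507 CPM at 24 h, and 38.8 and 41.5 CPM in G1E. No treated library overlapped an untreated one, and the 24 h pair lay above the 13 h pair. On the log2 scale the change was 2.10 ± 0.20 at 13 h and 3.19 ± 0.20 at 24 h against 0 h, which is 9.14-fold at 24 h (edgeR adjusted p = 1.4e-06). The change at 24 h against 13 h was 1.10 ± 0.22, a call lost without 24 h replicate 2 and with the series block.

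Ube2j2 was higher by 0.42 ± 0.11 at 13 h and 0.51 ± 0.11 at 24 h on the log2 scale (edgeR adjusted p = 0.0151 and 0.00321), calls that total-count scaling did not keep, and the one at 13 h was also lost without 0 h replicate 2 or 13 h replicate 1. Ube2g2, a soluble E2 of the same pathway, was not called at either time, with -0.26 ± 0.12 at 24 h, though total-count scaling called it lower, at -0.65. Of 15 tested ERAD partners, 5 were higher and none lower at 13 h against 0 h (20.1% and 20.9% of all tested genes). At 24 h against 0 h, 11 were higher and none lower (29.0% and 30.7% of all). The median log2 fold change at 24 h was 0.70 beside -0.07 for all tested genes. The largest increases at 24 h were in Herpud2, at 1.38 ± 0.13, and Derl1, a channel component, at 0.97 ± 0.12. Derl1 averaged 281 ± 10.8 CPM at 24 h and 143 ± 10.4 CPM at 0 h (SD, n = 2 and 3).

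The reticulocyte E2s Ube2h and Ube2o both rose by 24 h, on different courses. Ube2h serves the CTLH ligase, also called GID, and is abundant in late red cells. It had 114, 85.0 and 81.0 CPM at 0 h, 220 and 212 CPM at 13 h, 613 and 601 CPM at 24 h, and 146 and 96.8 CPM in G1E. Its level was higher at each later time, with no overlap among the 3 times. The log2 fold change was 1.21 ± 0.19 at 13 h against 0 h, 2.70 ± 0.19 at 24 h against 0 h (6.49-fold, edgeR adjusted p = 2.6e-06) and 1.49 ± 0.21 at 24 h against 13 h. Ube2h is the one member whose call at 24 h against 13 h held in 15 of 15 alternatives.

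Ube2o is a large enzyme that combines E2 and ligase activity and removes ribosomal and other proteins in reticulocytes. It had 67.6, 61.6 and 59.3 CPM at 0 h, 54.3 and 56.3 CPM at 13 h, 104 and 106 CPM at 24 h, and 36.9 and 34.9 CPM in G1E. The 13 h libraries were slightly below the 0 h ones, and the 24 h libraries above them all. This gave a log2 fold change of -0.18 ± 0.12 at 13 h (not called) and 0.75 ± 0.12 at 24 h against 0 h (edgeR adjusted p = 4.3e-04), and 0.93 ± 0.14 at 24 h against 13 h. Total-count scaling kept the 24 h call, at 0.35.

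All 11 listed CTLH genes were tested. At 13 h against 0 h, 7 were higher and 1 lower (20.1% and 20.9% of all tested genes). At 24 h against 0 h, 10 were higher and 1 lower (29.0% and 30.7% of all). The median log2 fold changes were 0.59 and 1.56. Ranbp10, a scaffold subunit, averaged 2069 ± 116 CPM at 24 h and 142 ± 28.8 CPM at 0 h (SD, n = 2 and 3), a log2 fold change of 3.86 ± 0.21 (edgeR adjusted p = 7.1e-07). Ypel5 rose by 3.23 ± 0.34 over the same interval. Maea, a catalytic RING subunit, was not called at 13 h, at 0.24 ± 0.16, and was higher by 1.03 ± 0.16 at 24 h. Gid4, a substrate receptor, was the member that fell, with a log2 fold change of -0.89 ± 0.16 at 24 h.

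**Figure D1:**
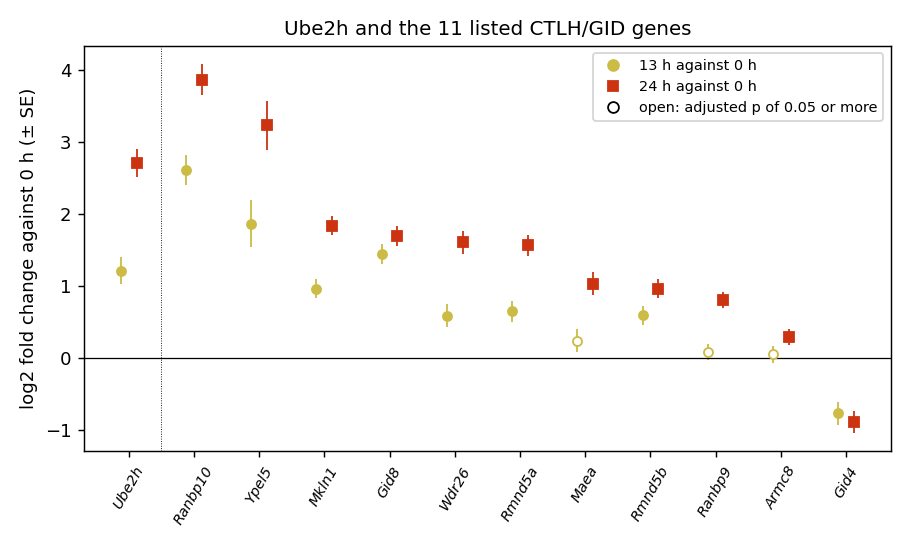
Log2 fold changes of gene-body counts (y axis, ± SE) at 13 h (circles) and 24 h (squares) against 0 h for Ube2h and the 11 listed CTLH/GID genes. Filled symbols are called genes. At 24 h, 10 of the 11 lie above 0 and Gid4 lies below it.

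E2s that build degradative chains diverged. Ube2r2, a partner of cullin ligases, had 135, 134 and 152 CPM at 0 h, 162 and 159 CPM at 13 h, 450 and 481 CPM at 24 h, and 131 and 113 CPM in G1E. The 24 h libraries stood well above the other 7, while the 13 h libraries lay only just above the 0 h ones. In the fit the log2 fold change was 0.20 ± 0.12 at 13 h (not called), 1.73 ± 0.11 at 24 h against 0 h (edgeR adjusted p = 1.7e-06) and 1.53 ± 0.13 at 24 h against 13 h. Its relative Cdc34 was lower by 1.00 ± 0.17 at 24 h, averaging 25 ± 0.4 CPM at 24 h and 49.9 ± 2.7 CPM at 0 h (SD, n = 2 and 3).

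Ube2g1, which extends chains on targets of cullin ligases, fell and partly recovered. It had 211, 206 and 216 CPM at 0 h, 95.4 and 109 CPM at 13 h, 142 and 137 CPM at 24 h, and 194 and 177 CPM in G1E. Each treated library was below each untreated one, and the 13 h pair was the lowest. On the log2 scale the change was -1.05 ± 0.12 at 13 h and -0.60 ± 0.11 at 24 h against 0 h (edgeR adjusted p = 1.0e-04 and 0.00113). The difference of 0.45 ± 0.12 between 24 h and 13 h had an adjusted p of 0.0258 and was not called in 6 of 15 alternatives, among them total-count scaling and the removal of 13 h replicate 1 or of either 24 h replicate. Ube2k, which can build K48 chains without a ligase, was higher by 0.44 ± 0.11 at 24 h against 0 h, a call that total-count scaling did not keep.

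Of 17 listed cullin and NEDD8 pathway genes, 7 were higher and 5 lower at 24 h against 0 h (29.0% and 30.7% of all tested genes), with a median of 0.25. Dcun1d3, which helps NEDD8 transfer, was higher by 1.86 ± 0.19 and Skp2, a receptor that targets cell cycle inhibitors, was lower by 2.25 ± 0.22 in size, averaging 17.6 ± 6.1 CPM at 24 h and 84.1 ± 10.0 CPM at 0 h (SD, n = 2 and 3).

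**Figure D2:**
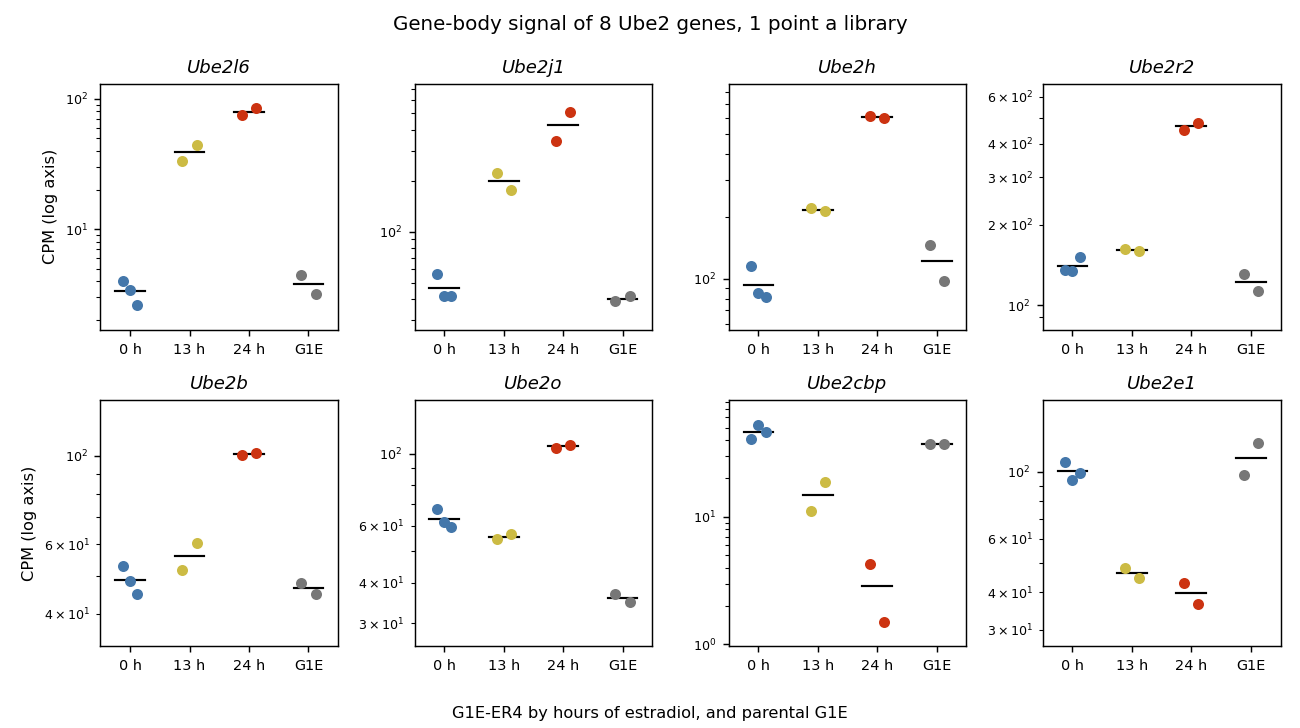
Gene-body level in CPM (y axis, log scale, a separate range per panel) of 8 Ube2 genes, with 1 point per library and a bar at each group mean, for G1E-ER4 at 0 h, 13 h and 24 h and for G1E. Ube2r2, Ube2b and Ube2o are highest at 24 h and were not called at 13 h against 0 h, and Ube2l6, Ube2j1, Ube2h, Ube2cbp and Ube2e1 were called at both times.

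The general-purpose E2s of the D, E and W families and Ube2l3 went both ways. Ube2e1 had 108, 93.9 and 99.1 CPM at 0 h, 48.0 and 44.7 CPM at 13 h, 43.0 and 36.5 CPM at 24 h, and 97.3 and 125 CPM in G1E. Every treated library was below every untreated one. The log2 fold change was -1.11 ± 0.15 at 13 h and -1.34 ± 0.16 at 24 h against 0 h (edgeR adjusted p = 3.9e-04 and 4.9e-05). Its relative Ube2e3 was lower at 13 h against 0 h, at -0.50 ± 0.13, a call lost without 13 h replicate 2, and was not called at 24 h, at -0.13 ± 0.13, though total-count scaling called it lower, at -0.52. The change of Ube2e3 between 13 h and 24 h was 0.37 ± 0.14 (adjusted p = 0.0868).

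Ube2d2a and Ube2d3, which serve many RING ligases, were not called at 13 h and were higher at 24 h against 0 h, by 0.69 ± 0.13 and 0.62 ± 0.10, though not with total-count scaling. Ube2l3, which charges HECT and RBR ligases, was higher by 0.45 ± 0.11 at 13 h, a call lost without 13 h replicate 1, and 0.82 ± 0.11 at 24 h. Ube2w, which modifies protein N termini, was lower by a similar amount at both times, at -0.46 ± 0.11 and -0.45 ± 0.11, the first of which was not called without 13 h replicate 2. Ube2e2 passed the filter on 1 to 14 reads per library and was not called. Ube2d1 had 0 to 4 reads, Ube2u 0 to 3 and Ube2ql1 0 to 1, while Ube2d2b, Ube2dnl1 and Ube2dnl2 had none in the 9 libraries. A count of 0 allows up to 3 reads, or 0.0206 to 0.0725 CPM across libraries, by counting error alone. Several D family genes are near copies, so reads could be split between them.

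Ube2b and Ube2a are the RAD6 homologues, E2s of DNA damage tolerance. Ube2b had 52.8, 48.3 and 44.9 CPM at 0 h, 51.5 and 60.4 CPM at 13 h, 101 and 102 CPM at 24 h, and 47.9 and 45.0 CPM in G1E. The 13 h libraries overlapped those of 0 h, and the 24 h libraries lay well above both. This gave a log2 fold change of 0.20 ± 0.13 at 13 h (not called), 1.06 ± 0.13 at 24 h against 0 h and 0.86 ± 0.15 at 24 h against 13 h (edgeR adjusted p = 7.5e-05 and 0.00432). Ube2a, which is X-linked, was not called, at 0.30 ± 0.18 at 24 h. The difference between these genes was not tested.

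Ube2n, which forms K63 chains with Ube2v1 or Ube2v2, was not called in any comparison of gene bodies with TMM. Ube2v1 was lower by 0.43 ± 0.13 in size at 13 h against 0 h and higher by 0.68 ± 0.15 at 24 h against 13 h. The first call held in 10 of 15 alternatives and was lost without 0 h replicate 1 or 3 or either 13 h replicate. The second held in 11 and was lost without 13 h replicate 2 or 24 h replicate 2, with total-count scaling and with the series block. Ube2v2 was higher by 0.44 ± 0.15 at 24 h against 0 h, a call that also held in 10 and was lost with total-count scaling and without 0 h replicate 1 or 2 or 24 h replicate 2. Ube2t, the E2 of the Fanconi anaemia pathway, had 53.1, 69.4 and 71.6 CPM at 0 h, 40.7 and 48.5 CPM at 13 h, 44.3 and 34.2 CPM at 24 h, and 57.9 and 61.6 CPM in G1E. The treated libraries lay below the untreated ones. Its log2 fold change was -0.54 ± 0.18 at 13 h and -0.72 ± 0.18 at 24 h against 0 h (edgeR adjusted p = 0.0371 and 0.00642). The 13 h call was lost in 8 of 15 alternatives, including the removal of 0 h replicate 2 or 3, either 13 h replicate or either G1E replicate, and the 24 h call was lost without 24 h replicate 2.

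Of 15 listed RAD6, Fanconi and K63 partners, 2 were higher and 7 lower at 24 h against 0 h (29.0% and 30.7% of all tested genes), with a median of -0.34. Fancb fell most, to 5.65 ± 1.37 CPM at 24 h, against 18.8 ± 1.2 CPM at 0 h (SD, n = 2 and 3), a log2 fold change of -1.74 ± 0.21 (edgeR adjusted p = 6.7e-05). Fanca rose by 1.15 ± 0.16.

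The E2s of the anaphase-promoting complex (APC/C), which drives exit from mitosis, showed wide spread. Ube2c, which starts the chains, had 25.1, 55.4 and 31.8 CPM at 0 h, 56.6 and 76.1 CPM at 13 h, 46.4 and 66.7 CPM at 24 h, and 20.9 and 22.1 CPM in G1E. Ube2s, which extends them, had 22.7, 52.9 and 32.0 CPM at 0 h, 31 and 34.3 CPM at 13 h, 38.0 and 55.1 CPM at 24 h, and 36.8 and 38.4 CPM in G1E. Replicate 2 of 0 h was the highest of the untreated G1E-ER4 libraries for both genes.

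Ube2c changed by 0.83 ± 0.30 at 13 h against 0 h, with an edgeR adjusted p of 0.0505, and by 0.60 ± 0.30 at 24 h (adjusted p = 0.114). Its adjusted p at 13 h ranged from 0.00377 to 0.244 over 15 alternatives and was under the threshold in 6. Without 0 h replicate 2, Ube2c and Ube2s were each higher at 24 h against 0 h, at adjusted p = 0.00552 and 0.0192, whereas Ube2s with that library had a log2 fold change of 0.38 ± 0.30 (adjusted p = 0.305). Of 16 tested APC/C genes, 5 were higher and none lower at 24 h against 0 h (29.0% and 30.7% of all tested genes). The higher share thus lay near the background. Their median was 0.21, and Cdc27, a core subunit, was highest at 1.53 ± 0.13.

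Ube2cbp, the binding partner of Ube2c, fell furthest. It had 40.5, 52.8 and 46.2 CPM at 0 h, 11.2 and 18.7 CPM at 13 h, 4.27 and 1.5 CPM at 24 h, and 37.3 and 37.1 CPM in G1E. The groups of the time course did not overlap. In the fit the log2 fold change was -1.64 ± 0.38 at 13 h against 0 h, a call lost without 13 h replicate 1, -4.01 ± 0.43 at 24 h against 0 h (16.1-fold lower, edgeR adjusted p = 3.0e-05) and -2.37 ± 0.42 at 24 h against 13 h. Dopey1, the neighbour that starts beside it, was not lower, at 0.42 ± 0.13 at 24 h against 0 h. Ube2q1 was lower by about the same amount at both times, at -0.54 ± 0.14 and -0.49 ± 0.14, calls lost without 13 h replicate 1 and 24 h replicate 2, in that order. Ube2q2 was not called. Ube2q1 overlaps 4632404H12Rik, and whether the counts used strand is not stated.

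Initiation was read separately from dREG peaks, regions where PRO-seq signal marks polymerase starting at promoters and enhancers. A dREG element here is a peak or 1 strand of it, counted in the same libraries, and is not an independent replicate. The deposited table placed 41 elements at the starts of 30 tested Ube2 genes, and none at Ube2e2. At 13 h against 0 h, 6 of the 41 were higher (15.2% of all 35158 tested elements) and 6 lower (18.6% of all). At 24 h against 0 h, 11 were higher (22.7% of all) and 10 lower (29.5% of all), and at 24 h against 13 h, 6 were higher (5.28% of all) and 1 lower (7.82% of all). Without 24 h replicate 2, the calls at 24 h against 0 h numbered 13 in place of 21, and at 24 h against 13 h 1 in place of 7. Without 13 h replicate 1 or 13 h replicate 2 they numbered 4 and 3 at 24 h against 13 h. Calls at 13 h against 0 h numbered 6 without 0 h replicate 2 and 5 without either 13 h replicate, in place of 12.

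Gene body and start were both called, in the same direction, in 13 of 30 genes at 24 h against 0 h and in 7 at 13 h against 0 h. No gene was called in opposite directions. Gene bodies and elements were scaled separately, so the sizes of body and start changes are not directly comparable. The start of Ube2l6, in the element chr2:84638000-84641551 (build mm9, as in all element positions here), changed by 3.54 ± 0.29 at 13 h and 4.01 ± 0.29 at 24 h against 0 h on the log2 scale. The start of Ube2h, chr6:30252700-30254951, changed by 0.76 ± 0.25 and 2.50 ± 0.25. For Ube2j1, chr4:33116600-33121601, the values were 1.26 ± 0.20 and 1.95 ± 0.20, beside gene-body changes of 2.10 and 3.19. This element also holds the start of 4933421O10Rik on the other strand. The start of Ube2cbp, chr9:86357700-86359001, changed by -1.11 ± 0.34 and -2.83 ± 0.37. The starts of Ube2r2, chr4:41081450-41085301, and Ube2b, chr11:51812650-51815451, were not called at 13 h, at 0.34 ± 0.18 and 0.44 ± 0.19, and were higher at 24 h against 0 h, by 1.19 ± 0.18 and 1.22 ± 0.18. The start of Ube2e1, chr14:19162450-19164901, was lower on the gene's strand at both times, at -0.79 ± 0.25 and -0.94 ± 0.25, and on the other strand, at -0.94 ± 0.34 and -1.15 ± 0.34.

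With TMM, Ube2n was the clearest case of a start called without its gene body. Its start element, chr10:94976650-94979151, had 89.9, 109 and 103 CPM at 0 h, 63.1 and 75.7 CPM at 13 h, 53.3 and 53.4 CPM at 24 h, and 87.4 and 65.6 CPM in G1E. The 24 h libraries were the lowest, and no treated library reached the range of the 0 h libraries. On the log2 scale the change was -0.92 ± 0.19 at 24 h against 0 h (edgeR adjusted p = 0.00147), while the gene body changed by 0.06 ± 0.11. With total-count scaling the gene body was called lower, at -0.32 (edgeR adjusted p = 0.029). The start of Ube2q2 was also lower at 24 h, by 0.47 ± 0.19 in size, without a call in the body. Conversely, 9 genes were called in the body at 24 h and not at the start, among them Ube2d2a, Ube2d3 and Ube2o, the last with a start change of 0.55 ± 0.23 (adjusted p = 0.052).

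**Figure D3:**
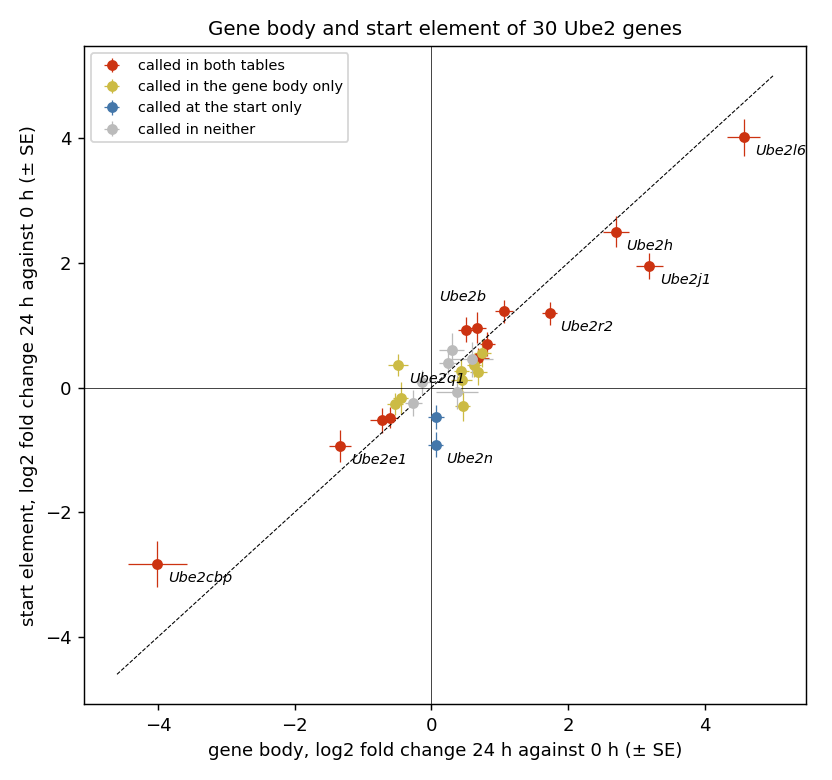
Log2 fold change at 24 h against 0 h in the gene body (x axis, ± SE) and at the start element (y axis, ± SE) of 30 Ube2 genes, where the dashed line marks equal change and colour shows in which table a gene was called. The 13 genes called in both lie in the upper right and lower left, and Ube2n lies below the line near a body change of 0.

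Other elements lay near the genes that rose most and were chosen after their values were seen. An intergenic peak upstream of Ube2h, chr6:30257150-30258951, had a strand in the gene's direction at 1.85, 0.47 and 0.62 CPM at 0 h, 4.62 and 5.49 CPM at 13 h, 6.02 and 7.35 CPM at 24 h, and 4.89 and 2.45 CPM in G1E. All treated libraries were above those of 0 h, and those of G1E were too. Its log2 fold change was 2.37 ± 0.50 at 13 h and 2.77 ± 0.50 at 24 h against 0 h (edgeR adjusted p = 0.00254 and 4.0e-04). Its opposite strand was higher at 13 h, by 1.45 ± 0.47, and was not called at 24 h, at 0.64 ± 0.49. A second intergenic peak farther upstream, chr6:30286550-30288101, was not called at either time. Inside Ube2h, the elements chr6:30249900-30251251 and, on the gene's strand, chr6:30224700-30226301 were higher by 2.76 ± 0.31 and 2.64 ± 0.26 at 24 h, and such elements also count polymerase passing along the gene.

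Beyond Ube2l6, in Smtnl1, the element chr2:84650700-84653751 had a strand in the direction of Ube2l6 that changed by 3.08 ± 0.30 at 13 h and 3.81 ± 0.31 at 24 h against 0 h, and its other strand by 2.41 ± 0.45 and 1.68 ± 0.45. How far polymerase running on past Ube2l6 adds to the counts of the strand in its direction was not tested. Upstream of Ube2j1 on the same strand lies Rragd, a GTPase of the nutrient-sensing pathway. Rragd had 8.35, 8.90 and 16.0 CPM at 0 h, 42.7 and 62.8 CPM at 13 h, 303 and 577 CPM at 24 h, and 0.130 and 0.0725 CPM in G1E. Its gene body changed by 2.25 ± 0.33 at 13 h and 5.31 ± 0.37 at 24 h against 0 h, and by 6.62 ± 0.56 at 0 h against G1E. Ube2j1 changed by 0.21 ± 0.20 at 0 h against G1E (not called). Whether polymerase running on from Rragd adds to the counts of Ube2j1 was not tested.

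Before any estradiol, G1E-ER4 differed little from G1E in these genes. At 0 h against G1E, 3 of the 31 tested members were higher (7.88% of all genes were) and 2 lower (9.58% of all), none by 1 or more on the log2 scale (4.97% of all genes were higher and 6.94% lower by that much). Ube2o was higher by 0.81 ± 0.13 (edgeR adjusted p = 0.00172), a call lost with the series block. Ube2v1 was higher by 0.72 ± 0.14 (lost without G1E replicate 1). Ube2w was higher by 0.53 ± 0.11 (lost without G1E replicate 2 and with the replicate block or the series block). Ube2k was lower by 0.76 ± 0.11 in size (adjusted p = 0.00105) and Ube2j2 by 0.49 ± 0.11. The call of Ube2j2 was lost without 0 h replicate 2 or either G1E replicate, and with the replicate block or the series block. The count was 3 without either G1E replicate. At the starts, 4 of 41 elements were higher (7.18% of all elements) and 1 lower (12.1% of all), at Ube2o, Ube2v1, Ube2w and Ube2c, and at Ube2k. Those 5 calls became 1 without 0 h replicate 2 or either G1E replicate, and 3 without 0 h replicate 3. The start of Ube2o changed by 1.14 ± 0.24 and that of Ube2c by 0.92 ± 0.29 (adjusted p = 0.00395 and 0.0409).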

How the data were processed

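PRO-seq libraries (9) were taken as deposited, in 4 groups set by the labels. The deposited gene-body and dREG peak tables hold raw counts of reads per gene or element, per the file headers. In the deposited peak table a percent value says how far along a gene a peak lies, and it served only to place elements. Alignment with BWA to mm9 is named in the submitters' processing notes; for the aligner version, the counting tool, its use of strand and the annotation, nothing is stated in the sources used here, so overlapping and antisense genes are uncertain. No step that removes PCR copies is recorded, so counting limits cover counting error only. Library totals were 37830789 to 139945759 in gene bodies and 15394427 to 59952454 in elements.

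Counts of all genes, or all elements, were fitted with edgeR 4.0.16 (R 4.3.3) by its robust quasi-likelihood test, after filterByExpr and TMM scaling, with a mean for each of the 4 groups and 5 residual degrees of freedom. The p-values were adjusted by Benjamini-Hochberg over each whole table, with a threshold of 0.05. The code was tested on simulated data. CPM use TMM scaling, and each SE is the absolute log2 fold change over the square root of F. Values were taken from 4 comparisons. Alternatives were RLE size factors, total counts, no expression filter, DESeq2 1.42.0, blocks by replicate number or library number series, each library left out, and crossed 24 h numbers, the last chosen after seeing the data.

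Members and gene lists were chosen with earlier results of these data known. Given in every library are members called with a log2 change of at least 1, and always Ube2h, Ube2o, Ube2c, Ube2s, Ube2t, Ube2l6 and Ube2m. A member and some partner genes that this rule names are not reported here, though the counts include them. Partner genes come from 10 lists of 118 genes, naming mainly the largest called changes. Promoter sequences are from RefSeq (GRCm38.p6), matched by symbol for 30 of 37 members, a build that differs from that of the element positions.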

Additional observations from a re-analysis of the deposited data

How the results depend on the processing

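Among the calls of members given in every library, 400 results under alternatives kept their direction and call and 35 kept the direction without the call, and none turned. Leaving out 1 library gave 7 to 15 Ube2 genes called at 13 h against 0 h (14 with all libraries), 19 to 23 at 24 h against 0 h (22), 6 to 13 at 24 h against 13 h (13) and 3 to 6 at 0 h against G1E (5). For start elements the ranges were 5 to 12 (12), 13 to 20 (21), 1 to 8 (7) and 1 to 5 (5). Total-count scaling left 5 start elements at 13 h against 0 h (3 higher, 2 lower), 3 at 24 h against 13 h and 3 at 0 h against G1E, and it changed the split of genes at 24 h as described above. At 24 h against 0 h, the share of higher calls among start elements was 11 of 21, and 12 of 18 without the filter on low counts.

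Deviations from the group mean correlated between libraries of the same replicate number at 0.459 and 0.444 for 0 h and 13 h, which also share a library number series, and at 0.162 for 24 h and G1E. For other groups the values were 0.063 and -0.037 (0 h and 24 h), -0.139 (13 h and 24 h), -0.141 and -0.144 (0 h and G1E) and -0.15 (13 h and G1E), so the numbers were not taken to pair all 4 groups. With the replicate block, Ube2 genes called numbered 10, 22, 9 and 3 in the order above, and start elements 8, 22, 8 and 4. Crossing the 24 h numbers, chosen after seeing the data, gave 10 genes and 5 start elements at 24 h against 13 h. A block by library number series, in which 24 h and 13 h libraries meet only through 0 h, left 1 gene and 2 start elements at 24 h against 13 h, and 2 genes and 0 start elements (edgeR, with 8 at an unadjusted p under 0.05, and 4 by DESeq2 without the block) at 0 h against G1E. The cause of these shifts was not tested. Groups of 2 or 3 libraries and low read totals limit Ube2e2 and several intergenic elements most.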

Other observations

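Other genes of the pathway were read from lists. Of 10 E1 genes, 3 were higher and 3 lower at 24 h against 0 h (median log2 fold change -0.10). In that comparison 29.0% of all tested genes were higher and 30.7% lower, so the E1 counts lay near the background. The same shares stand beside the other lists in this paragraph. Uba7 and Uba1, which feed ISG15 and ubiquitin into the pathway, were up most, by 1.88 ± 0.22 and 0.97 ± 0.12, and Uba2, of the SUMO E1, was down most, at -1.27 ± 0.14. Of 8 E2 or E2-variant genes with other names, 4 were higher and 2 lower (median 0.41), led by Tsg101, an E2 variant that sorts membrane proteins for the lysosome, which averaged 275 ± 12.4 CPM at 24 h and 79.2 ± 4.7 CPM at 0 h (SD, n = 2 and 3). Of 10 tested genes for ubiquitin and related modifiers, 1 was higher and 4 lower (median -0.13), with Rps27a, which fuses ubiquitin to a ribosomal protein, down by 1.13 ± 0.25 in size.

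Ube2e3 lies among intergenic dREG elements that nearly went silent while its own start did not. Of 11 tested elements, all named with Ube2e3 and with Itga4 or Gm14461, 10 were lower at 24 h against 0 h (29.5% of all elements were) and none higher. The element chr2:78966100-78968351 (mm9) had 287, 143 and 444 reads at 0 h, 16 and 11 reads at 13 h, 4 and 2 reads at 24 h, and 545 and 146 reads in G1E. The start of Ube2e3 changed by 0.09 ± 0.20 at 24 h against 0 h. Its neighbour Itga4, an integrin subunit, had a gene body that fell to 105 ± 21.2 CPM at 24 h, against 450 ± 33.6 CPM at 0 h (SD, n = 2 and 3), a log2 fold change of -2.10 ± 0.16. An element named with Ube2j2, chr4:155289250-155290601, had 15, 12 and 53 reads at 0 h, 2 and 3 reads at 13 h, 0 reads in both 24 h libraries, and 5 and 1 reads in G1E, and was higher at 0 h against G1E, by 2.59 ± 0.85. The gene body of Ube2j2 was higher at 24 h against 0 h and lower at 0 h against G1E. These elements were picked after their values were seen.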
